A study of Mus musculus with 2 samples.

Results

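Fibroblast growth factors (FGFs) and the genes that answer and restrain them were examined in the embryonic mouse face. The list held 33 genes, chosen by symbol as all FGF ligands and as the Sprouty, Spred, Dusp6 and Etv genes that FGF signalling switches on. The receptors were left out of the list. Of the 33 genes, 32 were matched to a row of the deposited gene tables by Ensembl gene ID, among 21474 annotated protein-coding genes. Spry3 had no matching row and was not analysed here.

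The tissue was facial prominence from healthy embryos of strain B6NCrl at age 12.5 days, the swellings that build the nose, jaws and palate. Each of the 2 total RNA libraries came from its own pool of male and female embryos, 120 for replicate 1 and 88 for replicate 2. There was 1 group, with no mutant, treatment or other stage, so no contrast between conditions could be made and no p-value was computed. Because whole prominences of many embryos were pooled, the values are averages over mesenchyme, epithelium, muscle, nerve and blood. Fewer cells of a type and less RNA per cell cannot be told apart in such samples.

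FGFs are signalling proteins that bind receptor tyrosine kinases with heparan sulphate and drive the RAS and ERK kinase cascade. ERK activity raises transcription of PEA3 factors of the ETS family (Etv1, Etv4, Etv5), which carry the signal to target genes. It also induces Sprouty and Spred proteins and the phosphatase DUSP6, which dampen the cascade. In the developing face, epithelial FGFs keep the neural crest-derived mesenchyme beneath them alive and growing. The FGF homologous factors (Fgf11 to Fgf14) share the fold of the family, but they stay inside the cell and bind voltage-gated sodium channels.

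Levels are given in TPM, the deposited unit, which divides counts by gene length so that they can be compared between genes. The library of replicate 1 held 27890681 expected counts and that of replicate 2 held 39969716. At an effective length of 1000 bases, 3 counts equal 0.172 TPM in the first and 0.121 TPM in the second. Bracketed ranges below are exact 95% Poisson intervals of the rounded expected count carried to TPM, and they cover counting error only. The surface epithelium markers Epcam, Cdh1, Krt14, Krt5, Trp63 and Esrp1 and the facial mesenchyme markers Prrx1, Msx1, Twist1, Pdgfra, Alx1 and Barx1 were all at or above 1 TPM in both libraries. All 3 liver markers and all 3 posterior Hox genes were under 1 TPM in both.

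Expression of the list was broad but uneven. In both libraries 23 of the 32 genes reached 1 TPM, against 61.8% of all protein-coding genes. All 10 feedback genes did so, against 13 of the 22 FGF genes. The feedback genes are here the matched Sprouty, Spred, Dusp6 and Etv genes, so the group holds the PEA3 factors as well as the inhibitors. A mean of 10 TPM or more was found for 10 genes of the list, against 42.4% of protein-coding genes. Those 10 were Dusp6, Spry2, Etv5, Fgf13, Spred1, Fgf15, Etv4, Etv1, Fgf18 and Spry1. The feedback genes had a median mean level of 16.7 TPM and the FGF genes one of 1.64 TPM, beside 5.24 TPM over all protein-coding genes. No gene of the list was under 3 expected counts in both libraries.

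**Figure D1:**
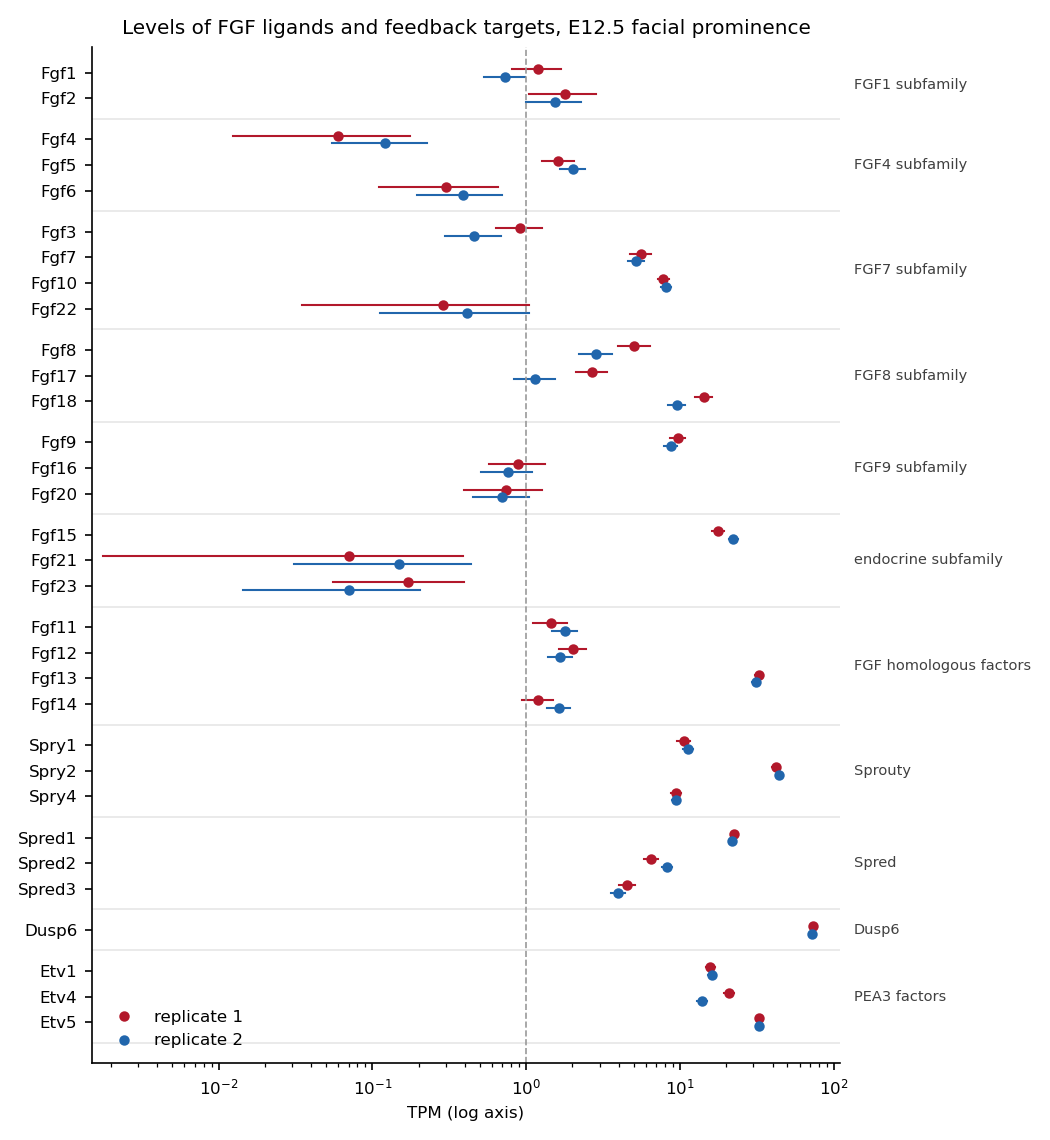
Level of each of the 32 genes in TPM on a log axis, grouped by family, with replicate 1 in red and replicate 2 in blue. Bars are 95% Poisson intervals of the count and the dashed line marks 1 TPM. All 10 feedback genes lie to the right of the line, while the FGF genes spread from 0.0900 to 31.8 TPM in the mean.

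Fgf13 carried the highest level of any FGF gene, and 2 of its transcripts account for most of it. They start 31.7 kb apart on chromosome X and code for proteins of 192 residues (Fgf13-202) and 245 residues (Fgf13-201), which differ only in the first coding exon. The 4 later coding exons, 548 bases in all, are the same. Both first coding exons are shown because they set the amino-terminal end of the protein, the part by which FGF homologous factor isoforms are known to differ in where they go in the cell. Sequences are from the GENCODE M21 transcripts (GRCm38), 5′ to 3′ on the minus strand, with the start codon in capitals. The first lies at chrX:59166013-59166040 (28 bases) and the second at chrX:59133877-59134063 (187 bases).
Fgf13-202 first coding exon: ATGgctttgttaaggaagtcatattcag
Fgf13-201 first coding exon: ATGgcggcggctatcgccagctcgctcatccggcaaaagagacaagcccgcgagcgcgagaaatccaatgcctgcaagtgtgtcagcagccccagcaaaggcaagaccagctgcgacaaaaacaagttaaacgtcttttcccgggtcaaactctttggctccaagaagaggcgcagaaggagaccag

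The sequence just before the starts of Fgf13-202 and Fgf13-201 also differs in composition. Other Fgf13 transcripts start elsewhere and are not shown. The stretches below come from RefSeq promoter windows (GRCm38.p6), read 5′ to 3′ on the minus strand and ending before the annotated exon, with GC boxes (GGGCGG on either strand) in capitals. They cover chrX:59166165-59166338 for Fgf13-202 and chrX:59134437-59134686 for Fgf13-201. The Fgf13-202 stretch is 40.2% G and C and holds no GC box, and the Fgf13-201 stretch is 74.4% G and C and holds 4.
Fgf13-202 upstream: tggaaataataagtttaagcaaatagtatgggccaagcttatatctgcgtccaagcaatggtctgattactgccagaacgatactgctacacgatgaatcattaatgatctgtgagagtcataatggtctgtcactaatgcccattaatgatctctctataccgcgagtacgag
Fgf13-201 upstream: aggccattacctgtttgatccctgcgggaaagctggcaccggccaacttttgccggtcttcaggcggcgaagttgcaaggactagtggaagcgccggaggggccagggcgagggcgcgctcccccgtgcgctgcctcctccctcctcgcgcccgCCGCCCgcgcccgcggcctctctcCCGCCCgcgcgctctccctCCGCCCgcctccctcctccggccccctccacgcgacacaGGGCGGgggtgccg
A GC box on either strand was found in 35.7% of the 32851 RefSeq windows of 300 bases. The TATA box letters TATAAA, on either strand, were found in 13.6% of them. The full 300-base window of Fgf13-202 holds 1 TATAAA, past the stretch printed, and that of Fgf13-201 holds 0. Such matches describe the letters only.

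Fgf8 transcripts differ at a coding junction where 3 stretches can be inserted. Each is printed as it stands alone between the same neighbouring bases, but Fgf8-201 holds the 33-base and 87-base stretches together. Fgf8-203, with 420 annotated coding bases, also differs elsewhere. They are shown because the isoforms of this ligand, named by letters in mouse, differ in strength, with Fgf8b the more potent in midbrain patterning assays. The letters come from GENCODE M21 (GRCm38), 5′ to 3′ on the minus strand, with the inserted stretch in capitals between 12 coding bases on either side. The 33-base stretch, which the b form has but not alone, lies at chr19:45741647-45741679. The 87-base exon lies at chr19:45741911-45741997 and the 192-base extension at chr19:45742324-45742515.
Fgf8 33-base stretch: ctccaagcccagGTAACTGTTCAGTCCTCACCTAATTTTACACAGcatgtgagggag
Fgf8 87-base exon: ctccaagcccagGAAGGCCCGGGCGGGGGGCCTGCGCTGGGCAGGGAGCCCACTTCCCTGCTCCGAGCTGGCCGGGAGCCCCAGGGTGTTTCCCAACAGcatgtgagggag
Fgf8 192-base extension: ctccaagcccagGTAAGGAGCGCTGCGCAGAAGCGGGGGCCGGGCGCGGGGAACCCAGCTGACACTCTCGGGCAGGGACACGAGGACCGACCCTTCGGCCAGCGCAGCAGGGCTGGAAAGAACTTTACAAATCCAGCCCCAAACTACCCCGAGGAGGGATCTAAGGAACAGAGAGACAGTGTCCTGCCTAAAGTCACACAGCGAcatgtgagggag

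Spred2 and Etv4 each have an optional coding stretch whose estimated share differed between the libraries. The deposited TPM intervals of Spred2-201 were apart (1.43 to 3.18 in replicate 1, 3.55 to 5.20 in replicate 2). Those of Spred2-202 overlapped, as did those of each Etv4 transcript. For Etv4-201 they ran from 0.605 to 8.41 in replicate 1 and from 0.932 to 5.29 in replicate 2. The Spred2 cassette exon of 81 bases lies at chr11:20001009-20001089 on the plus strand. The 18-base Etv4 extension lies at chr11:101774228-101774245 on the minus strand. Both come from GENCODE M21 (GRCm38), with the optional stretch in capitals between 12 coding bases on either side.
Spred2 81-base exon: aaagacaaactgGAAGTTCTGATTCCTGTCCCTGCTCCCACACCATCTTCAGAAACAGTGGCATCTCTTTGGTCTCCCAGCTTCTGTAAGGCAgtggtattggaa
Etv4 18-base extension: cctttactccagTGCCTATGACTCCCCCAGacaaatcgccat

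Among the secreted ligands, those of the FGF8 subfamily, whose members favour the mesenchymal receptor forms, were all at or above 1 TPM. Fgf18, a ligand of skeletal and palatal mesenchyme (chr11:33117430-33147400), had 14.27 TPM in replicate 1 (12.5 to 16.2) and 9.51 TPM in replicate 2 (8.32 to 10.8). Fgf8, which is needed for survival of first-arch mesenchyme (chr19:45736798-45742915), had 5.05 TPM in replicate 1 (3.93 to 6.39) and 2.86 TPM in replicate 2 (2.21 to 3.64). Fgf17, a ligand best known from the midbrain and the frontal cortex, had 2.67 TPM in replicate 1 (2.10 to 3.35) and 1.14 TPM in replicate 2 (0.832 to 1.53). All 3 were higher in replicate 1, and for each the TPM intervals of the 2 libraries did not overlap. For Fgf8 they overlapped once the counts were scaled by library total only, because the effective length was 781.74 bases in replicate 1 and 931.48 in replicate 2. Fgf18 stood above Fgf8 3.07-fold, with a log2 ratio of Fgf8 to Fgf18 of -1.62 ± 0.17 (SD, n = 2 libraries). Fgf18 stood above Fgf17 6.68-fold, with a log2 ratio of Fgf17 to Fgf18 of -2.74 ± 0.45. Fgf8 stood above Fgf17 2.18-fold (log2 ratio 1.12 ± 0.29), but the log2 ratio was 0.92 in replicate 1, under the limit of 1 used for a call. In library-scaled counts not divided by length that log2 ratio was 0.23, with effective lengths in replicate 1 of 781.74 bases for Fgf8 and 1588 bases for Fgf17.

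Ligands of the FGF7 subfamily, which pass from mesenchyme to epithelium through the epithelial form of Fgfr2, were led by Fgf10 and Fgf7. Fgf10, required for salivary gland, palate and limb outgrowth (chr13:118669791-118792115), had 7.80 TPM in replicate 1 (7.16 to 8.48) and 8.11 TPM in replicate 2 (7.56 to 8.69). Fgf7, keratinocyte growth factor, had 5.55 TPM in replicate 1 (4.75 to 6.45) and 5.17 TPM in replicate 2 (4.57 to 5.83). Intervals of the 2 libraries overlapped for both genes. The log2 ratio of Fgf10 to Fgf7 was 0.57 ± 0.11 and did not pass 1, although in counts not divided by length it was 1.62. Fgf3, a ligand of ear and pharyngeal development, had 0.91 TPM in replicate 1 and 0.46 TPM in replicate 2, from 35 and 24 expected counts. Fgf22 had 0.29 and 0.41 TPM from 2 and 4 expected counts in replicates 1 and 2, which is close to the detection limit.

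In the FGF9 subfamily, Fgf9 held nearly the whole sum. Fgf9, a ligand that epithelia send to mesenchyme (chr14:58070547-58112720), had 9.69 TPM in replicate 1 (8.64 to 10.8) and 8.69 TPM in replicate 2 (7.88 to 9.57). Fgf16, known from the heart, had 0.89 TPM in replicate 1 and 0.76 TPM in replicate 2. Fgf20, a ligand of tooth and hair placodes and of the inner ear, had 0.74 TPM in replicate 1 and 0.70 TPM in replicate 2. Fgf9 stood 11.2-fold above Fgf16 and 12.7-fold above Fgf20, with log2 ratios of 3.48 ± 0.05 and 3.67 ± 0.05. Fgf16 and Fgf20 did not differ beyond their counting intervals in either library.

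Ligands of the FGF1 and FGF4 subfamilies were low. Fgf2, basic fibroblast growth factor, had 1.78 TPM in replicate 1 (1.04 to 2.85) and 1.54 TPM in replicate 2 (0.997 to 2.27). Fgf1, the acidic form, had 1.19 TPM in replicate 1 and 0.73 TPM in replicate 2, and so missed 1 TPM in 1 library. By posterior mean TPM it had 2.17 in replicate 1 and 1.5 in replicate 2, and Fgf2 had 2.91 in replicate 1 and 2.47 in replicate 2. Of the Fgf1 value in replicate 1, 0.78 TPM came from 3.88 expected counts on a transcript of 384 bases, and as a share of the library's counts the gene differed little (ratio of replicate 1 to replicate 2 of 1.04). Fgf2 against Fgf1 gave a log2 ratio of 0.83 ± 0.35, which did not pass 1 in the mean and was -0.86 in counts not divided by length. Fgf5, known as a brake on hair growth, had 1.62 TPM in replicate 1 (1.26 to 2.05) and 2.02 TPM in replicate 2 (1.67 to 2.42). Fgf6, a muscle ligand, had 0.30 TPM in replicate 1 and 0.39 TPM in replicate 2. Fgf4, a ligand of the limb ridge and the blastocyst, had 0.06 TPM in replicate 1 and 0.12 TPM in replicate 2, from 3 and 9 expected counts. Fgf5 was therefore 21.3-fold above Fgf4, a log2 ratio of 4.41 ± 0.48 that rests on those few counts.

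The endocrine ligands were represented by 1 gene. Fgf15, the mouse counterpart of human FGF19 and in the adult a gut hormone that restrains bile acid synthesis (chr7:144896531-144900953), had 17.64 TPM in replicate 1 (16.2 to 19.2) and 22.25 TPM in replicate 2 (20.9 to 23.7). It was the highest secreted ligand in both libraries and was higher in replicate 2, with intervals that did not overlap. Fgf21, a fasting hormone of the liver, had 0.07 TPM in replicate 1 and 0.15 TPM in replicate 2, from 1 and 3 expected counts. Fgf23, a phosphate hormone of bone, had 0.17 and 0.07 TPM from 5 and 3 expected counts in replicates 1 and 2. The co-receptors that endocrine FGFs use were near the detection limit, with Kl at 0.03 TPM in replicate 1 and 0.11 TPM in replicate 2. Klb stood at 0.05 TPM in replicate 1 and 0.06 TPM in replicate 2.

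FGF homologous factors held more of the family's RNA than any secreted subfamily. Their summed level was 37.18 TPM in replicate 1 and 36.08 TPM in replicate 2, which is 35.1 ± 0.848% of the TPM of all 22 FGF genes (SD, n = 2). Nearly all of it was Fgf13 (chrX:59062145-59568071), with 32.54 TPM in replicate 1 (30.6 to 34.6) and 31.00 TPM in replicate 2 (29.4 to 32.7). Fgf12 had 2.01 TPM in replicate 1 and 1.66 TPM in replicate 2. Fgf11 had 1.44 TPM in replicate 1 and 1.79 TPM in replicate 2. Fgf14, whose loss causes ataxia in mouse and human, had 1.19 TPM in replicate 1 and 1.63 TPM in replicate 2. Fgf13 stood above Fgf12 17.4-fold, above Fgf11 19.8-fold and above Fgf14 22.8-fold. The intervals of Fgf11, Fgf12 and Fgf14 overlapped with one another in replicate 2, so no order among them can be given there. Annotated transcripts of all 4 genes (Fgf11-202, Fgf12-201, Fgf13-201 and Fgf14-202 among them) share a layout in which coding exons of 111, 104 and 199 bases follow a first exon that varies. The leading Fgf11 transcript, Fgf11-201, lacks 84 of these bases. Neuron markers, set beside this group because the homologous factors are known from neurons, were all detected, with sums over 6 genes of 447.9 TPM in replicate 1 and 344.0 TPM in replicate 2. Their part in the level of Fgf13 was not tested.

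Over the 18 secreted ligands the summed level was 70.69 TPM in replicate 1 and 65.08 TPM in replicate 2. The order of the subfamilies within that sum was not the same in the 2 libraries. FGF8 subfamily members led in replicate 1 with 21.99 TPM, against 13.51 TPM in replicate 2. The endocrine sum, nearly all Fgf15, led in replicate 2 with 22.47 TPM, against 17.88 TPM in replicate 1. FGF7 subfamily sums were alike, at 14.55 TPM in replicate 1 and 14.15 TPM in replicate 2. The FGF9 subfamily had 11.32 TPM in replicate 1 and 10.15 TPM in replicate 2. FGF1 and FGF4 sums stayed under 3 TPM in each library, but by posterior mean TPM the FGF1 sum was 5.08 in replicate 1 and 3.97 in replicate 2. The order of the subfamilies also depends on the division by length. In counts scaled by library total and not divided by length, the FGF7 subfamily led the secreted ligands with 22.2% of the FGF total, against 13.7% in TPM. On that scale the endocrine subfamily held 17.5%, against 19.4% in TPM, and the FGF8 subfamily 9.17%, against 16.9% in TPM.

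**Figure D2:**
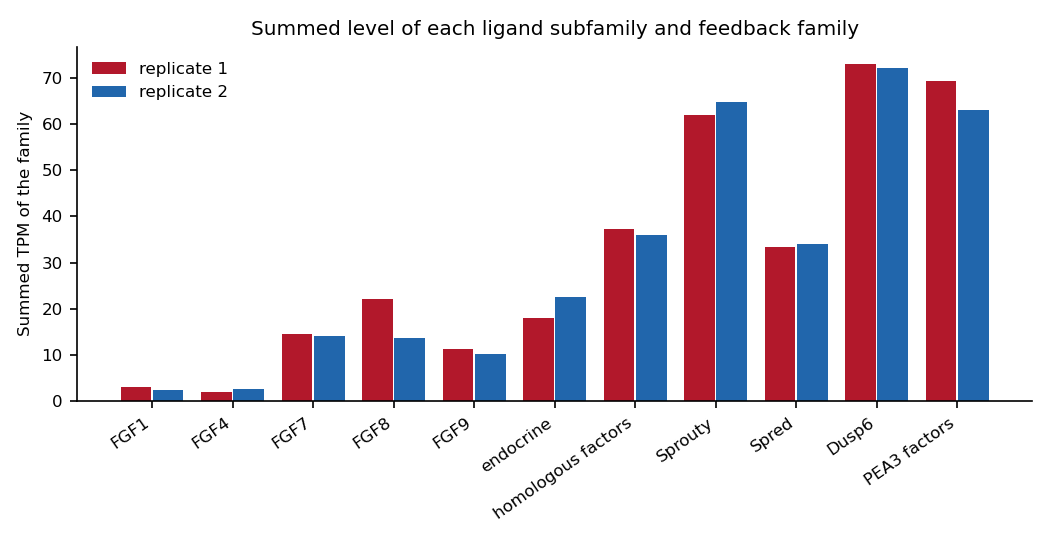
Summed TPM of each ligand subfamily and each feedback family, with replicate 1 in red and replicate 2 in blue. Bars start at 0. The feedback families hold most of the RNA, and the FGF8 and endocrine sums differ between the libraries in opposite directions.

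Among the genes that restrain the pathway, Dusp6 was the highest of the whole list. Dusp6, the cytoplasmic phosphatase that removes the activating phosphates of ERK (chr10:99263231-99267489), had 73.14 TPM in replicate 1 (70.7 to 75.6) and 72.19 TPM in replicate 2 (70.2 to 74.3). It ranked 2352 among the 21474 protein-coding genes by mean TPM. The log2 ratio of Dusp6 to Spry2, the next gene of the list by level, was 0.75 ± 0.06 and did not pass 1, although in counts not divided by length it was 1.20. Dusp6 has 1 transcript with deposited values, so the level does not depend on how reads were shared between isoforms.

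Sprouty proteins, which block the cascade near the receptor, differed in level by member. Spry2, the member tied to palate, tooth and ear development (chr14:105891947-105896819), had 42.08 TPM in replicate 1 (39.9 to 44.3) and 44.13 TPM in replicate 2 (42.3 to 46.0). Spry1, known from kidney and tooth, had 10.59 TPM in replicate 1 (9.62 to 11.6) and 11.22 TPM in replicate 2 (10.4 to 12.1). Spry4 had 9.46 TPM in both libraries. Spry2 stood 3.95-fold above Spry1 and 4.56-fold above Spry4, with log2 ratios of 1.98 ± 0.01 and 2.19 ± 0.05. In counts not divided by length these log2 ratios were 1.72 and 1.01, the latter just past the limit for a call. Spry1 and Spry4 stayed within 1 on the log2 scale of each other (0.20 ± 0.06), with Spry1 below Spry4 in counts not divided by length (-0.71).

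Spred proteins, which recruit neurofibromin to the membrane to switch off RAS, followed in the order Spred1, Spred2 and Spred3. Spred1, the gene of Legius syndrome in humans (chr2:117121374-117182279), had 22.37 TPM in replicate 1 (21.5 to 23.3) and 21.77 TPM in replicate 2 (21.0 to 22.6). Spred2 had 6.51 TPM in replicate 1 (5.88 to 7.18) and 8.23 TPM in replicate 2 (7.61 to 8.89), with intervals that did not overlap in TPM but did in counts scaled by library total. Spred3 had 4.53 TPM in replicate 1 (4.02 to 5.09) and 3.95 TPM in replicate 2 (3.55 to 4.38). Spred1 stood 3.01-fold above Spred2 (log2 ratio 1.59 ± 0.27). The log2 ratio of Spred2 to Spred3 was 0.79 ± 0.38 and passed 1 in replicate 2 only, at 1.06.

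PEA3 factors, the transcription factors at the end of the cascade, were all above 10 TPM. Etv5 (chr16:22381309-22439719) had 32.75 TPM in replicate 1 (31.4 to 34.1) and 32.86 TPM in replicate 2 (31.7 to 34.0). Etv4 (chr11:101769742-101785371) had 20.88 TPM in replicate 1 (19.3 to 22.6) and 13.97 TPM in replicate 2 (12.9 to 15.1). Etv1 (chr12:38779380-38870484) had 15.77 TPM in replicate 1 (14.7 to 16.9) and 16.21 TPM in replicate 2 (15.3 to 17.2). Etv5 was the highest of the 3 in both libraries. The order of Etv4 and Etv1 turned round between the libraries, with a log2 ratio of Etv4 to Etv1 of 0.40 in replicate 1 and -0.21 in replicate 2. Its mean was 0.10 in TPM and -0.54 in counts not divided by length. Etv5 against Etv4 gave a log2 ratio of 0.94 ± 0.41, at 0.65 in replicate 1 and 1.23 in replicate 2, and of 2.04 in counts not divided by length. The log2 ratio of Etv5 to Etv1 was 1.04 ± 0.02, just past the limit for a call, and it was 0.93 with posterior mean TPM. Dusp6 stood 2.22-fold above Etv5 (log2 ratio 1.15 ± 0.02), but in counts not divided by length that log2 ratio was 0.64.

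**Figure D3:**
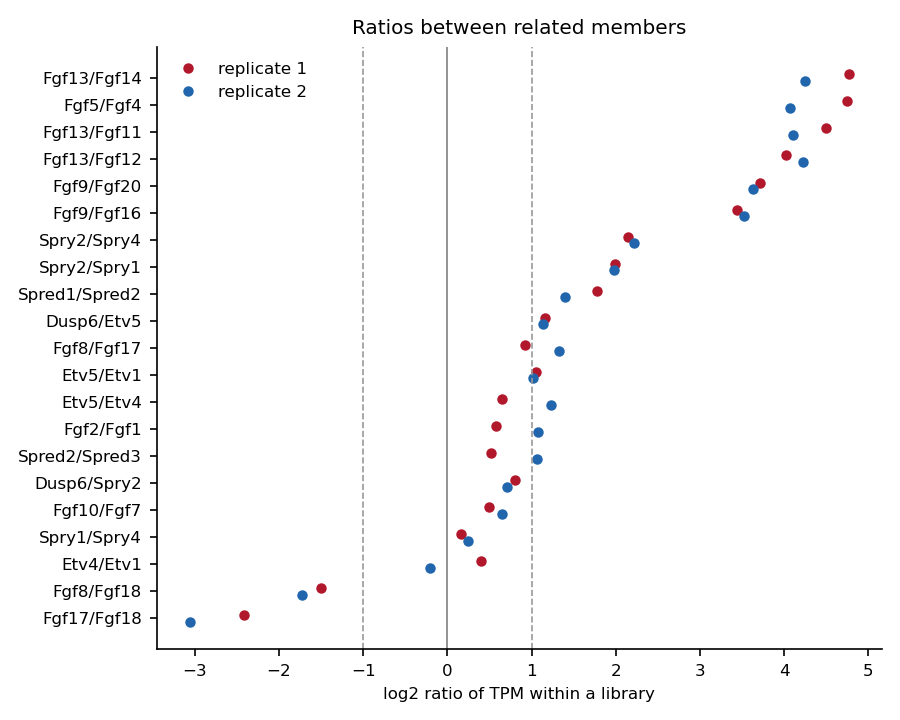
The log2 ratio of TPM within each library for the 21 pairs of related genes that had at least 3 expected counts, with replicate 1 in red and replicate 2 in blue. Dashed lines mark -1 and 1. In 14 pairs the mean ratio lies past 1 or -1 with the same sign in both libraries, and the pair of Etv4 and Etv1 straddles 0.

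Several of these genes are neighbours. On chromosome 7, Fgf3 and Fgf4 lie 2.93 kb apart and Fgf4 and Fgf15 lie 31.3 kb apart, yet their mean levels were 0.685, 0.0900 and 19.9 TPM. On chromosome 6, Fgf6 and Fgf23 lie 44.7 kb apart and both were under 1 TPM. Fgf2 and Spry1 lie 230 kb apart on chromosome 3, with mean levels of 1.66 and 10.9 TPM.

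Where the genes overlap others on the opposite strand, the value may hold reads of both, because the sources used here do not state that the counting used strand. The overlaps were taken from all GENCODE M21 exons, while the deposited values rest on GENCODE M4. In Fgf15, 761 of 3058 exonic bases (24.9%) overlap the antisense gene Gm26793, which had 0.76 TPM in replicate 1 and 0.84 TPM in replicate 2. The only Fgf15 transcript with deposited values has 1809 bases. Fgf2 shares 640 exonic bases (9.44%) with Nudt6, which had 4.41 TPM in replicate 1 and 5.12 TPM in replicate 2, both above the level of Fgf2. Spry1 shares 710 exonic bases (24.4%) with Gm42922, for which no value was matched. Fgf20 shares 202 bases with Micu3, which had 14.07 TPM in replicate 1 and 13.8 TPM in replicate 2. Fgf22 shares 82 bases with Rnf126, at 80.8 TPM in replicate 1 and 80.2 TPM in replicate 2. Whether the shared bases lie in the transcripts that were counted was not checked. It is therefore uncertain how far the low values of Fgf2, Fgf20 and Fgf22 hold reads of these neighbours.

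Differences between the 2 pools were small enough to miss the limit for a call. The list as a whole and its FGF genes agreed less closely than the background, but its feedback genes did not. TPM values lay within 10% of each other for 10 of the 23 genes, against 8938 of the 13490 protein-coding genes. None of the 23 genes with a mean of 1 TPM or more differed by over 1 in log2(TPM + 1) between the libraries, against 0.252% of the 13490 protein-coding genes at that level. The median absolute difference was 0.142 for those 23 genes and 0.083 for all 13490. For the 10 feedback genes it was 0.052, and for the 13 FGF genes 0.193. Most of these FGF genes had lower levels and fewer counts than the feedback genes. The groups were not matched for level with each other or with the background. Counting intervals did not overlap between the libraries for 6 of the 23 genes, against 20.8% of the 13490, a share near the background. Fgf8, Fgf17, Fgf18 and Etv4 were higher in replicate 1, and Fgf15 and Spred2 were higher in replicate 2.

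The size of these 6 differences depends in part on the length assigned to the gene. A second ratio was therefore taken from CPM, the counts scaled by library total and not divided by length. For Fgf17 the ratio of replicate 1 to replicate 2 was 2.34 in TPM and 2.36 in CPM. For Fgf18 it was 1.50 in TPM and 1.53 in CPM. For Fgf8 it was 1.77 in TPM and 1.50 in CPM. For Etv4 it was 1.50 in TPM and 1.33 in CPM, with an effective length of 1680.63 bases in replicate 1 and 1914.94 in replicate 2. For Fgf15 it was 0.793 in TPM and 0.801 in CPM. For Spred2 it was 0.791 in TPM and 0.867 in CPM. The direction was the same on both scales in all 6 genes. On the CPM scale the counting intervals stayed apart for 4 of them, against 16.3% of the 13490 protein-coding genes, and overlapped for Fgf8 and Spred2. Fgf8 had 2.47 CPM in replicate 1 (1.92 to 3.13) and 1.65 CPM in replicate 2 (1.28 to 2.10). Spred2 had 14.2 CPM in replicate 1 (12.8 to 15.6) and 16.3 CPM in replicate 2 (15.1 to 17.6).

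**Figure D4:**
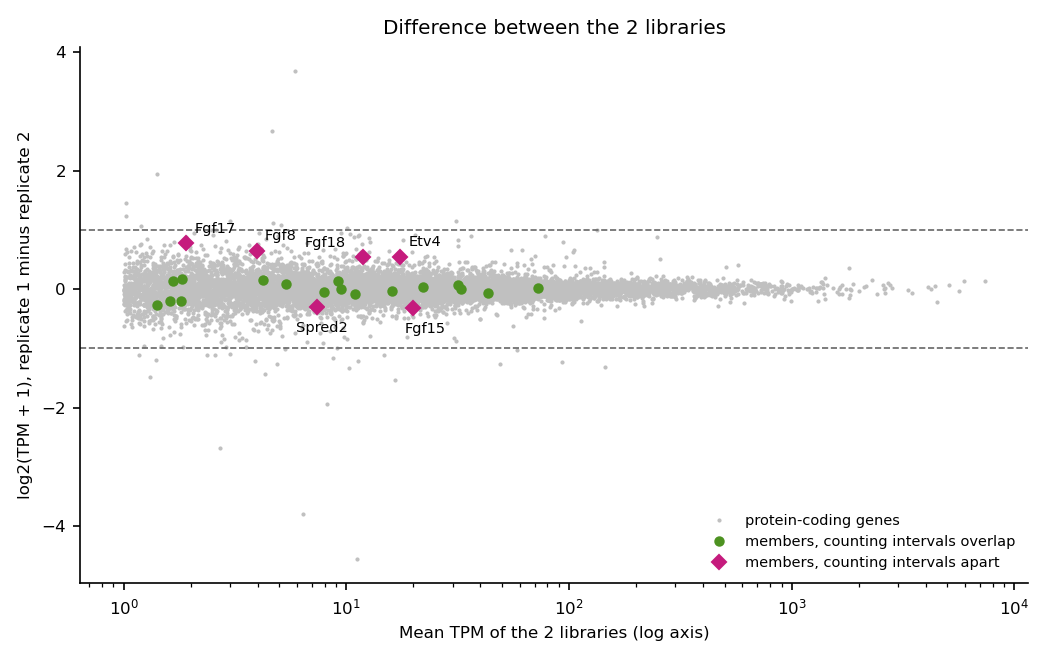
Difference in log2(TPM + 1), replicate 1 minus replicate 2, against the mean TPM on a log axis, for 13490 protein-coding genes (grey) and the 23 genes of the list with a mean of 1 TPM or more (green circles, or pink diamonds where the counting intervals of the libraries do not overlap). Dashed lines mark -1 and 1. All 23 lie between the lines, and the 4 highest diamonds are Fgf17, Fgf8, Etv4 and Fgf18.

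Some markers of particular regions and cell types differed between the same libraries. All 6 neuron markers were higher in replicate 1, with summed levels of 447.9 and 344.0 TPM in replicates 1 and 2. Of 5 forebrain markers, 4 were higher in replicate 1, with summed levels of 28.50 and 22.47 TPM, and Nkx2-1 stood at 3.66 and 1.34 TPM. All 4 skeletal muscle markers were higher in replicate 2, with summed levels of 273.4 TPM in replicate 1 and 321.1 TPM in replicate 2. Barx1, a marker of the maxillary and mandibular mesenchyme, had 177.4 TPM in replicate 1 and 88.55 TPM in replicate 2. Alx1, a frontonasal marker, had 91.94 TPM in replicate 1 and 134.2 TPM in replicate 2. The other facial mesenchyme markers differed less between replicates 1 and 2. Prrx1 had 153.99 and 147.97 TPM, Msx1 336.19 and 325.34 TPM, Twist1 65.84 and 70.81 TPM, and Pdgfra 96.58 and 93.16 TPM. Summed levels of all 6 mesenchyme markers were 921.9 TPM in replicate 1 and 860.0 TPM in replicate 2. The 6 epithelial markers had summed levels of 275.8 and 271.6 TPM in replicates 1 and 2. The part of these markers in the differences of Fgf8, Fgf17, Fgf18, Etv4, Fgf15 and Spred2 was not tested.

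Of the 23 genes with a mean of 1 TPM or more, 7 have 1 transcript with deposited values (Dusp6, Fgf5, Fgf12, Fgf15, Fgf17, Spry2 and Spry4). Transcript use could not be measured for these 7, and forms outside the annotation used for counting may exist. Of the other 16, 12 had the same leading transcript in both libraries, and 4 drew over 90% of their TPM from 1 transcript in both. By posterior mean shares, 14 of the 16 had the same leader. In 10 genes the second transcript held a mean share of 10% or more, and these are described next. The shares are the authors' estimates, which divide reads common to several transcripts, and they grow less certain as counts fall.

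Fgf13-202, the transcript with the short first exon printed above, held 62.07% of Fgf13 TPM in replicate 1 and 53.23% in replicate 2. Fgf13-201, with the longer first exon, held 23.02% in replicate 1 and 25.39% in replicate 2. The order was the same in both libraries, from 702.87 and 814.71 expected counts on Fgf13-202 in replicates 1 and 2. The remaining Fgf13 transcripts with a share start at chrX:59567472-59568071. Among them, Fgf13-205 held 8.10% in replicate 1 and 6.62% in replicate 2, and Fgf13-206 held 1.74% and 8.58%. Fgf11-201 led Fgf11 with 63.29% in replicate 1 and 69.00% in replicate 2. The other Fgf11 transcript has 84 more coding bases, and they were in 36.8% of coding TPM in replicate 1 and in 31.1% in replicate 2.

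For Fgf8, no single transcript dominated. The 33-base stretch was in transcripts holding 30.3% of coding TPM in replicate 1 and 43.0% in replicate 2. Of these, Fgf8-206, which has it without the 87-base exon, held 20.79% of Fgf8 TPM in replicate 1 and 28.39% in replicate 2. The 87-base exon was in transcripts holding 34.7% in replicate 1 and 28.3% in replicate 2. Fgf8-201 holds both of these and counts in each share. The 192-base extension, which of the annotated coding transcripts only Fgf8-202 has, accounted for 10.5% in replicate 1 and 32.5% in replicate 2. The leading transcript was Fgf8-204 (233 residues) in replicate 1, with 25.04%, and Fgf8-202 (268 residues) in replicate 2, with 32.63%. Each of these shares rests on under 25 expected counts per transcript, so no order among the Fgf8 forms can be given.

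Fgf9-201, which codes for the protein of 208 residues, held 76.59% of Fgf9 TPM in replicate 1 and 67.78% in replicate 2. The rest was mainly Fgf9-203, which starts 2.14 kb away and has an open reading frame of 91 residues. In Fgf7, Fgf7-201 led with 49.44% in replicate 1 and 59.65% in replicate 2, and Fgf7-202 has the same coding bases. A transcript with no annotated reading frame held 43.5% of Fgf7 TPM in replicate 1 and 22.1% in replicate 2. This transcript is short (853 bases), and its part of the counts was smaller. It had 31.79 of 170 expected counts in replicate 1 and 21.36 of 269 in replicate 2.

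Among the feedback genes, the 81-base exon of Spred2 printed above was in 63.6% of coding TPM in replicate 1 and in 45.7% in replicate 2. The leading Spred2 transcript was accordingly Spred2-202 (437 residues) in replicate 1 and Spred2-201 (410 residues) in replicate 2. The 18-base extension of Etv4 was in 60.5% of coding TPM in replicate 1 and in 45.4% in replicate 2. Because the deposited intervals of the Etv4 transcripts overlapped between the libraries, no difference in its use can be stated. Etv4 transcripts with no reading frame held 35.1% of its TPM in replicate 1 and 21.4% in replicate 2. They are short, and their part of the counts was smaller. The one with the most, Etv4-207 (882 bases), had 41.42 of 613 expected counts in replicate 1 and 28.06 of 663 in replicate 2. Etv1-203 led Etv1 in both libraries, with 35.55% in replicate 1 and 40.27% in replicate 2, and a 69-base exon that it lacks was in 57.8% of coding TPM in replicate 1 and in 47.4% in replicate 2. Spry1-201 and Spry1-203, whose starts lie 11 bases apart, code for the same 313 residues. They held 58.48% and 38.99% in replicate 1, and 46.07% and 50.56% in replicate 2. Spred3-201 led Spred3 with 75.83% in replicate 1 and 81.22% in replicate 2, beside a retained-intron transcript.

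**Figure D5:**
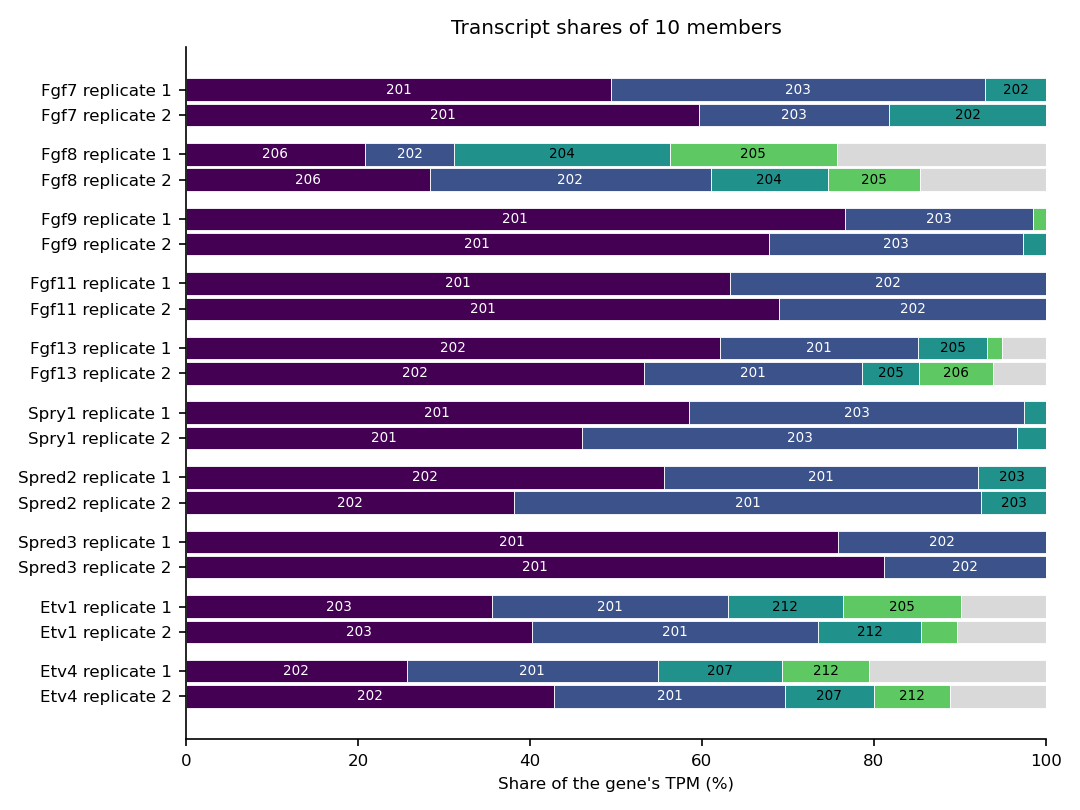
Share of each gene's TPM held by its transcripts in replicates 1 and 2, for the 10 genes with a second transcript at a mean share of 10% or more. Numbers are the GENCODE transcript suffixes, colours follow the rank by mean share and grey is the remainder. Fgf13-202 leads in both libraries, while the leading transcript differs between the libraries for Fgf8, Spry1, Spred2 and Etv4, of which Spry1 and Etv4 have 1 leader in both by posterior mean shares.

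The median mean level of each of 5 lists of other pathway genes, from 11.2 to 44.5 TPM, lay above the 1.64 TPM of the FGF genes. Of 67 genes in these lists, 63 reached 1 TPM in both libraries. Among the 7 receptors and co-receptors, 5 did so. Fgfr1 had 130.82 TPM in replicate 1 and 130.64 TPM in replicate 2, and Fgfr2 had 103.54 TPM in replicate 1 and 103.69 TPM in replicate 2, while Kl and Klb were lowest, as given above with Fgf15.

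All 22 signal transducers reached 1 TPM, with a median mean level of 42.2 TPM. The kinase Map2k2 (MEK2) was highest at 192 ± 5.48 TPM (SD, n = 2). The scaffold Ksr1 was lowest at 3.36 ± 0.693 TPM, below the kinase Rps6ka3 at 4.94 ± 0.424 TPM.

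All 14 other feedback genes and ERK phosphatases reached 1 TPM, with a median of 11.2 TPM, beside 16.7 TPM for the 10 feedback genes of the list. Flrt3, a membrane protein that binds FGF receptors, was highest at 67.4 ± 4.87 TPM, and its relative Flrt2 stood at 63.8 ± 14.7 TPM. Lgals3, a galectin, was lowest at 2.77 ± 0.849 TPM, below the nuclear phosphatase Dusp5 at 4.04 ± 0.403 TPM.

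Of 12 other ERK-responsive factors, 10 reached 1 TPM, led by Ier2 at 79.1 ± 1.19 TPM and Ets2 at 57.6 ± 2.48 TPM. Egr2 and Fosl1 were lowest, at 0.460 ± 0.113 and 0.750 ± 0.141 TPM. All 12 extracellular binding proteins reached 1 TPM. The heparan sulphate proteoglycan Gpc3 was highest at 740 ± 39.7 TPM, followed by Sdc1 at 147 ± 5.74 TPM. The carrier proteins Fgfbp1 and Fgfbp3, which release FGFs from the matrix, were lowest at 1.95 and 9.09 TPM in the mean.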

How the data were processed

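Values of both total RNA libraries were used as deposited. Reads were aligned to mm10 with GENCODE M4, per the deposited notes; no source used here names the aligner, the counter or the handling of strand. Per the file headers, the expected count estimates the reads of a gene or transcript, and a read that matches several features is split among them. The deposited TPM values divide counts by effective length and scale each library to the same total, with ERCC spike-ins inside it (6.88% and 7.57% of TPM in replicates 1 and 2). The deposited FPKM values and the posterior mean TPM served as alternatives. Transcript shares are the percent of a gene's TPM, as deposited by the authors.

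Gene names and coordinates (1-based, GRCm38) came from GENCODE M21, matched by Ensembl ID, and promoter windows from RefSeq (24 of 33 symbols matched). Ratios between genes were called where the mean log2 ratio over both libraries passed 1 with 1 sign, with at least 3 expected counts for each gene. Of 22 listed pairs, 21 qualified. A library difference was called past 1 in log2(TPM + 1). The comparison of Poisson intervals and of CPM (expected counts scaled by library total) between libraries, and the count over genes with several transcripts, were added after seeing the data. With 2 libraries in 1 group no test was run, and the spread is that between 2 pools. Every gene of the list is named; from each pathway list the 2 highest and 2 lowest by mean TPM are named, except 1 gene that is not reported here, and transcripts are described where a second one held a mean share of 10% or more. The genes and lists were chosen with earlier results of these data known. Python 3.11.15, numpy 2.4.6, pandas, scipy and matplotlib were used.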

Additional observations from a re-analysis of the deposited data

How the results depend on the processing

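The count of 23 genes at 1 TPM in both libraries became 24 with posterior mean TPM (Fgf1 added), 26 at a minimum of 0.5 TPM, 17 at 2 TPM and 19 in FPKM, and lay between 23 and 24 with 1 library left out. The median level of 4.10 TPM lay between 3.41 and 4.79 TPM with 1 library left out and was 4.99 TPM when rescaled over protein-coding genes. The FGF homologous factors held 37.2% of the FGF sum in counts not divided by length, against 35.1% in TPM. On the same scale the FGF8 share was 9.17% (16.9% in TPM), the FGF7 share 22.2% (13.7%), the FGF1 share 1.42% (2.50%) and the FGF9 share 9.91% (10.3%), and by posterior mean TPM the FGF1 share was 4.20%. With a pseudocount of 0.1 TPM, 1 gene of the list differed past 1 between the libraries (Fgf17, 1.16), against 0 with a pseudocount of 1 or 5, with counts scaled by median-of-ratios factors or with no minimum. Ratio calls, 14 of 21, ranged from 12 to 17. Of single ratios under the 5 alternatives, 6 lost and 6 gained a call and 93 kept theirs, and none of the called ratios changed sign, while the uncalled ratios of Fgf2 to Fgf1, Spry1 to Spry4 and Etv4 to Etv1 turned in counts not divided by length. Of the 16 genes with several transcripts, leading transcripts matched in 14 with posterior mean shares, against 12, with Spry1 and Etv4 then having 1 leader. Depth limits Fgf4, Fgf21, Fgf22 and Fgf23, each with under 10 expected counts per library. No paired analysis was possible because the libraries form 1 group.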
